A study of Mus musculus with 5 samples.

Results

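The NF-κB pathway and the inflammatory cytokines around it were examined as a list of 34 genes, defined by gene symbol with no threshold on a measured value. Of the 34, 33 matched a row of the deposited table of 19127 genes, and 31 of the 33 had a mean of at least 1 CPM (reads scaled to a common library total) and entered the test. Il10 is not analysed here. The genes fall into 7 roles, namely the transcription factor subunits (5 genes), their inhibitors (5), feedback regulators and adaptors (4), kinases (5), cytokines with 1 antagonist (10), receptors (3) and other target genes (2).

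RNA sequencing was done on neutrophils sorted from mouse blood with an antibody to Ly6G, a surface protein of mouse neutrophils, after red cell lysis. The first group, labelled BMALf/f x Mrp8Cre, carries floxed Bmal1 (Arntl), the gene of a clock activator, and has 2 libraries, here called Bmal1-2 and Bmal1-3 by group and replicate number. The second, labelled CXCR4f/f x Mrp8Cre, carries floxed Cxcr4, the gene of the receptor that holds neutrophils in marrow, and has 3 libraries, Cxcr4-1, Cxcr4-2 and Cxcr4-3. Both groups share Mrp8Cre, a recombinase whose promoter works in neutrophils and in part of the other myeloid lineage. All donors were male mice kept free of specific pathogens, aged 7 to 10 weeks, and blood was drawn at Zeitgeber time 13 (20 h on the clock). No group without a floxed allele was analysed here, so a difference cannot be assigned to either genotype. Nothing in the labels ties each library to an animal of its own, and p-values measure only the spread between these samples.

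NF-κB is a family of dimeric transcription factors held inactive in the cytoplasm by IκB inhibitors. Signals from Toll-like receptors, from the interleukin-1 receptor or from TNF receptors activate an IκB kinase complex, which marks the inhibitors for destruction and frees the dimers to enter the nucleus. Among the targets are the genes of the inhibitors and of the deubiquitinating enzyme Tnfaip3, which switch the signal off again, and those of the cytokines Il1b, Tnf and Il6. In neutrophils the pathway drives cytokine output and prolongs survival at sites of inflammation.

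The libraries differed in depth and content. Whole reads recovered from the table numbered 2869625 and 4058914 in the Bmal1 libraries, and between 356872 (Cxcr4-1) and 9101826 (Cxcr4-3) in the Cxcr4 libraries. The values are normalised read counts, and 3 reads, taken as the detection floor, were worth 6.46 in Cxcr4-1 and at most 0.902 elsewhere. Arntl was not lower in the Bmal1 libraries, with 4.81 and 27.6 there against 15.1, 1.90 and 1.05 in Cxcr4-1, Cxcr4-2 and Cxcr4-3. Its groups overlapped. Recombination and the part of other cells in these values were not tested, so the groups are named by label only. Cxcr4 had 398.6 and 127.8 in the Bmal1 libraries, against 15.1, 72.2 and 4.80 in the Cxcr4 libraries, lower in all 3 Cxcr4 libraries but still detected there. All 16 core neutrophil genes were measured, and they summed to 9793 and 7088 in Bmal1-2 and Bmal1-3, against 17248, 4826 and 448.0 in Cxcr4-1, Cxcr4-2 and Cxcr4-3. By limma, 13 of the 16 were higher and 3 lower in the Bmal1 libraries. Csf3r had 2339 and 1338 in the Bmal1 libraries, against 900, 443 and 39.6 in the Cxcr4 libraries. Ltf had 6.31 and 3.14, against 859, 22.8 and 15.7. The sum, used below as a covariate, follows its most abundant genes and not each gene alike. The sort marker Ly6g had 6.31 and 5.16 in the Bmal1 libraries, against 30.1, 0 and 1.05 in the Cxcr4 libraries. All 12 endothelial genes were measured too, none of them at 0 in any library, and they summed to 6295 and 15125 in the Bmal1 libraries, against 7999, 12416 and 27588 in the Cxcr4 libraries. Cxcr4-3 thus held few neutrophil transcripts and many endothelial ones for a sort on Ly6G. In Bmal1-3 and Cxcr4-2 too, the endothelial sum was above the core neutrophil sum. In bulk samples, fewer cells of a type and less RNA per cell cannot be told apart.

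Promoter sequences were searched for the κB consensus, the decamer that NF-κB dimers bind. The members were chosen as genes of this pathway and its targets, so a high share of matches is no independent support for the list. RefSeq promoter windows (GRCm38.p6, 250 bases before to 50 after each start) were found for 25 of the 34 members. Of these, 9 (36%) held at least 1 match on either strand (Csf1, Il6, Nfkb2, Nfkbia, Nfkbid, Nfkbie, Rel, Tnfaip3 and Tnip1), against 5.14% of all 27025 symbols with a window. The members with a match include 3 inhibitors, 2 feedback regulators and 2 subunits, genes whose products restrain or renew the factor. A match is a description of letters and not of binding. The 250 bases before the start are shown for 4 genes with matches and for Il1b, which had none in this window although it is a known target, with each match in capitals as read on the strand of the gene.
Nfkbia, chr12:55492648-55492897, minus strand: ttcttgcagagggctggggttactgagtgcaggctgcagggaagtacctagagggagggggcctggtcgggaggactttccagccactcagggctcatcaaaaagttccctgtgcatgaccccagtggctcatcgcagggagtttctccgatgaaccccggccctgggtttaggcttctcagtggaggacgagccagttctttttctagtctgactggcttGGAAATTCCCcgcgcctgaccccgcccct
Tnfaip3, chr10:19015411-19015660, minus strand: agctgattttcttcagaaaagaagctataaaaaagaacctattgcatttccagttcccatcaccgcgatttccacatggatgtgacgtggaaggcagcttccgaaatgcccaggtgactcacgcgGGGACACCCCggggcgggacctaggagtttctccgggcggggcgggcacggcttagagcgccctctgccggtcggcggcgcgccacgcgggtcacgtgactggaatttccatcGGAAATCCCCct
Tnip1, chr11:54962941-54963190, minus strand: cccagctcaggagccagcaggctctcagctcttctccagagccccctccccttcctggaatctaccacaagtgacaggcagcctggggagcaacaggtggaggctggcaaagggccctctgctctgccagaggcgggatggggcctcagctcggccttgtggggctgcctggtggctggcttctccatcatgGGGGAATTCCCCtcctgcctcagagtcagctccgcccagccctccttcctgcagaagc
Nfkb2, chr19:46304487-46304736, plus strand: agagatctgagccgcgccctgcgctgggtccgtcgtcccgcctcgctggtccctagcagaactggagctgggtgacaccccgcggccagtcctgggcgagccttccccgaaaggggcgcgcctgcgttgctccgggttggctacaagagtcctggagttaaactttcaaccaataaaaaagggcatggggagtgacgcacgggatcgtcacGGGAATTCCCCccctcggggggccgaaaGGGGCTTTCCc
Il1b, chr2:129371140-129371389, minus strand: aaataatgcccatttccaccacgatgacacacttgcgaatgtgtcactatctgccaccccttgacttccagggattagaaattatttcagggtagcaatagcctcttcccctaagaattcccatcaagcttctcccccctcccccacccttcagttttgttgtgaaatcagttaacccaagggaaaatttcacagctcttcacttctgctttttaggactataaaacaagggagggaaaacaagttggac
The single match of Nfkbia began 29 bases before the start. Tnfaip3 had 2 matches, beginning 125 and 12 bases before it. The capitals of Tnip1 are 4 overlapping matches in a palindrome, the first of which began 58 bases before the start. Nfkb2 is shown at the most upstream of its 3 starts in that table, where 3 matches overlap in the first capitals and 1 makes up the second.

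**Figure D1:**
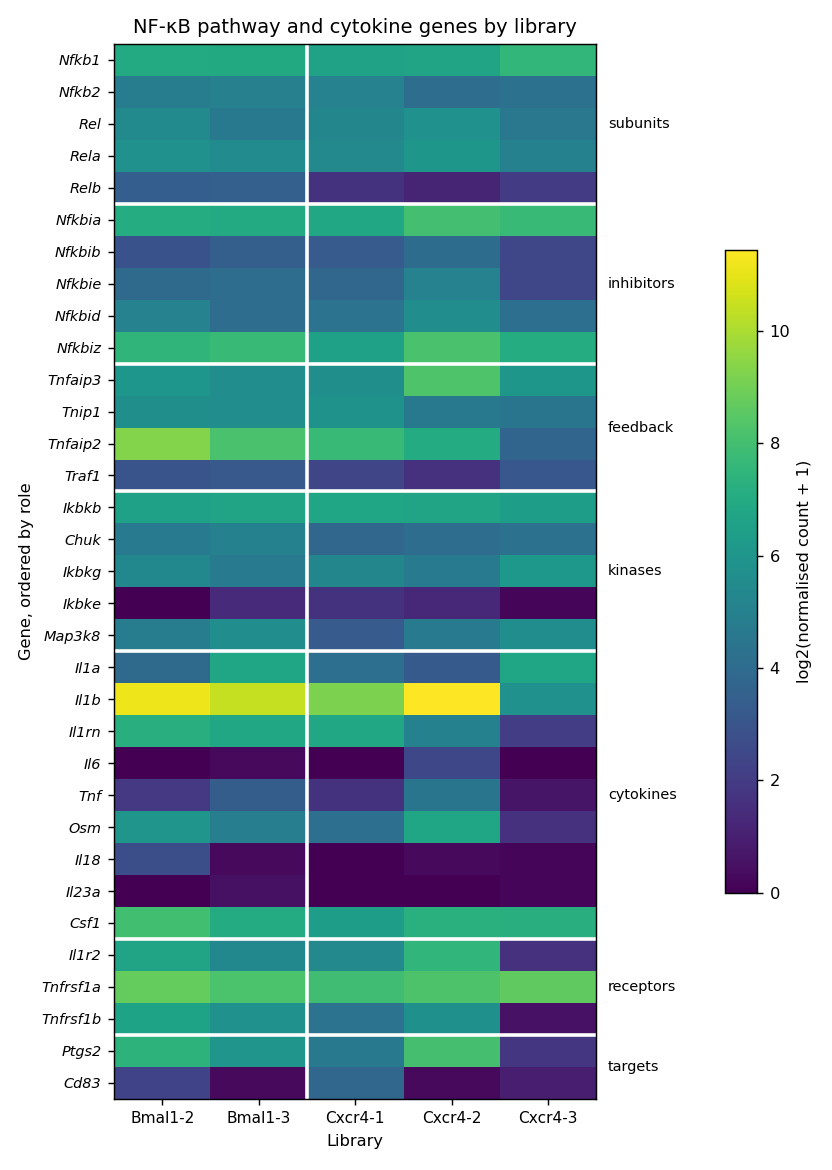
Level of each of the 33 members measured (rows, grouped by role) in the 5 libraries (columns), as log2(normalised count + 1), shown by colour. Il1b stands out in 4 libraries, between 585 and 2779 normalised counts, and is at 54.3 in Cxcr4-3, while the rows of Nfkb1, Ikbkb and Tnfrsf1a change little in colour from library to library.

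The genes of the factor itself were present in every library, with overlapping groups for all but Relb. Nfkb1, which encodes the precursor of a DNA-binding subunit, had 124.8 and 122.2 normalised counts in Bmal1-2 and Bmal1-3, against 96.9, 100.5 and 187.9 in Cxcr4-1, Cxcr4-2 and Cxcr4-3. Both Bmal1 values lie inside the range of the Cxcr4 libraries, and Cxcr4-3 is the highest. Rela, the main activating subunit, had 54.1 and 45.5 in the Bmal1 libraries, against 40.9, 64.8 and 31.9 in the Cxcr4 libraries, again with overlap. Rel, an activating subunit prominent in blood cells, averaged 32.7 ± 12.4 (SD, n = 2) in Bmal1 and 37.6 ± 15.3 (SD, n = 3) in Cxcr4 libraries, and Nfkb2, precursor of the subunit of the alternative pathway, averaged 29.1 ± 2.01 (SD, n = 2) and 22.2 ± 8.81 (SD, n = 3). These 4 genes differed between groups by less than the standard error (SE) of the difference. The 5 subunits together summed to 257.6 and 232.7 in the Bmal1 libraries, against 208.8, 236.0 and 263.8 in the Cxcr4 libraries.

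Relb was the exception among the subunits. Relb (chromosome 7, 19606217 to 19629438, minus strand, GRCm38), which partners the Nfkb2 product in the alternative pathway, had 9.62 and 10.5 normalised counts in Bmal1-2 and Bmal1-3, against 2.15, 1.27 and 2.93 in Cxcr4-1, Cxcr4-2 and Cxcr4-3. The groups did not overlap, and the Bmal1 libraries are both above all 3 Cxcr4 libraries. The values rest on 32 and 47 reads in the Bmal1 libraries, against 1, 6 and 25 in the Cxcr4 libraries, and 2.15 in Cxcr4-1 lies under its floor. On the log2(value + 1) scale, which understates differences of low genes, the Bmal1 minus Cxcr4 difference was 1.87 (SE 0.92; limma unadjusted p 0.0767, adjusted p 0.9999). Without Cxcr4-3 it was 2.05, and with the core neutrophil sum as a covariate 1.97. Within a library, the ratio of Relb to Rela was 0.178 and 0.232 in the Bmal1 libraries, against 0.0526, 0.0195 and 0.0919 in the Cxcr4 libraries.

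Of the inhibitors, Nfkbia and Nfkbiz were the most abundant per kilobase of exon, at 104.4 and 35.9 normalised counts per kb averaged over the 5 libraries, against 4.14 to 11.4 for Nfkbib, Nfkbie and Nfkbid. Nfkbia (chromosome 12, 55489410 to 55492647, minus strand) encodes IκBα, the fast inhibitor that NF-κB itself induces, and had 132.6 and 125.1 in the Bmal1 libraries, against 111.9, 260.1 and 210.7 in Cxcr4-1, Cxcr4-2 and Cxcr4-3. Its difference of -0.50 (SE 0.50) was as large as its error (limma unadjusted p 0.345, adjusted p 0.9999). It was -0.86 without Cxcr4-1 (limma unadjusted p 0.0418, adjusted p 0.399) and -0.25 without Cxcr4-2. In the fit without Cxcr4-1, 1782 of 14632 genes and 4 of the 31 members had an unadjusted p under 0.05. There, 0 genes passed the adjusted threshold. Nfkbiz, a nuclear IκB protein that co-activates secondary targets such as Il6, had 175.6 and 213.9 in the Bmal1 libraries, against 92.6, 282.7 and 135.1 in the Cxcr4 libraries, with overlap. Nfkbib and Nfkbie, cytoplasmic inhibitors, ranged from 4.45 to 15.4 and from 4.45 to 32.9 over the 5 libraries, and Nfkbid, another nuclear member, from 16.1 to 48.1. Nfkbiz and these 3 differed between groups by less than their SE. All 5 inhibitors were highest in Cxcr4-2. Their sum was 361.4 and 381.4 in Bmal1-2 and Bmal1-3, against 245.4, 639.3 and 371.8 in Cxcr4-1, Cxcr4-2 and Cxcr4-3.

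Of the 4 feedback regulators and adaptors, Tnfaip3 and Tnip1 had differences of opposite sign, neither past the threshold. Tnfaip3 (chromosome 10, 19000910 to 19015657, minus strand), which encodes an enzyme that edits ubiquitin chains and ends NF-κB signalling, had 64.3 and 48.4 normalised counts in the Bmal1 libraries, against 51.7, 316.3 and 65.9 in Cxcr4-1, Cxcr4-2 and Cxcr4-3. The Cxcr4-2 value was 4.80 times the next highest, and the other 4 libraries lay close together. The group difference was -0.87 (SE 0.77, limma unadjusted p 0.292, adjusted p 0.9999). It was -0.063 without Cxcr4-2 and -1.36 without Cxcr4-1 (limma unadjusted p 0.168). Tnip1, whose product works with the Tnfaip3 enzyme, had 51.1 and 47.3 in the Bmal1 libraries, against 56.0, 23.4 and 20.96 in the Cxcr4 libraries. Cxcr4-1 was highest and Cxcr4-2 low, unlike for Tnfaip3, and the group difference was 0.68 (SE 0.62; limma unadjusted p 0.298, adjusted p 0.9999). It was 1.12 without Cxcr4-1 (limma unadjusted p 0.0452, adjusted p 0.401), 0.43 without Cxcr4-3 and 0.37 with the core neutrophil sum as a covariate. Traf1, an adaptor of TNF receptors, ranged from 2.11 to 8.30 and differed by less than its SE.

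Tnfaip2 (chromosome 12, 111442469 to 111455018, plus strand), a gene induced by TNF whose product shapes membrane protrusions, was the only member with an unadjusted p under 0.05. It had 636.4 and 287.7 normalised counts in Bmal1-2 and Bmal1-3, against 206.6, 129.8 and 12.4 in Cxcr4-1, Cxcr4-2 and Cxcr4-3. Both Bmal1 libraries lie above all Cxcr4 libraries, and Cxcr4-3 is far below the rest. The means were 462.1 ± 246.6 (SD, n = 2) and 116.3 ± 97.8 (SD, n = 3), and the difference was 2.59 (SE 1.06; limma unadjusted p 0.0399, adjusted p 0.9999). edgeR on recovered reads gave 1.95 with an unadjusted p of 0.0829. Without Cxcr4-3 the difference was 1.38, and leaving out each library in turn gave unadjusted limma p-values from 0.0445 (without Cxcr4-1) to 0.318 (without Bmal1-2). With the core neutrophil sum as a covariate it was 1.55 (limma unadjusted p 0.0108, adjusted p 0.964).

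The kinase genes held the steadiest member of the list and 1 of the 5 without overlap. Ikbkb, the catalytic kinase of the canonical pathway, had 92.3 and 101.4 normalised counts in the Bmal1 libraries, against 109.8, 103.2 and 83.7 in Cxcr4-1, Cxcr4-2 and Cxcr4-3, a coefficient of variation of 10.4% over the 5 libraries and the smallest of the 33 members. Chuk, the second catalytic subunit, had 26.2 and 31.6 in the Bmal1 libraries, against 12.9, 16.3 and 18.3 in the Cxcr4 libraries. The Chuk groups did not overlap, and the difference was 0.84 (SE 0.63; limma unadjusted p 0.222, adjusted p 0.9999). Ikbkg, the regulatory subunit that senses ubiquitin chains, had 39.7 and 26.5 in the Bmal1 libraries, against 36.6, 25.5 and 66.9 in the Cxcr4 libraries. Map3k8, a kinase downstream of Toll-like and TNF receptors, ranged from 8.61 to 48.0, and Ikbke, an inducible relative of the complex, was at 7 reads or fewer in every library. The last 3 differed by less than their SE.

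Il1b was the most abundant cytokine. It lies on chromosome 2 (129364570 to 129371139, minus strand), encodes interleukin-1β, a pyrogenic cytokine that neutrophils release, and averaged 739 normalised counts per kb of exon over the 5 libraries, against 29.0 or less for each other cytokine member and 128 for Tnfrsf1a, the next of all members. Il1b had 2242 and 1382 normalised counts in Bmal1-2 and Bmal1-3, against 585, 2779 and 54.3 in Cxcr4-1, Cxcr4-2 and Cxcr4-3. The groups overlapped, since Cxcr4-2 was the highest of all and Cxcr4-3 the lowest. The means were 1812 ± 607.9 (SD, n = 2) in Bmal1 and 1140 ± 1445 (SD, n = 3) in Cxcr4 libraries, with a difference of 1.97 (SE 1.36; limma unadjusted p 0.184, adjusted p 0.9999). Without Cxcr4-3 the difference was 0.46, without Cxcr4-2 it was 3.29 (limma unadjusted p 0.0436), and with the core neutrophil sum as a covariate 0.95. In the fit without Cxcr4-2, 687 of 14632 genes and 3 of the 31 members had an unadjusted p under 0.05. There, 0 genes passed the adjusted threshold. The 15 monocyte and macrophage genes, cells that also make Il1b, summed to 489.4 and 331.6 in the Bmal1 libraries, against 303.5, 179.0 and 113.5 in Cxcr4-1, Cxcr4-2 and Cxcr4-3, and their part in the Il1b level was not tested. Of these genes Ms4a7 was at 0 in Bmal1-3 and Cxcr4-1, Clec4f in Bmal1-2, C1qb in Cxcr4-1 and Cxcr4-2, and Marco in Cxcr4-1. Not all followed the sum. Cxcr4-3 was the lowest library for 6 of the 14 tested, but C1qa, C1qb, C1qc, Vsig4 and Clec4f were highest in Bmal1-3 and Cxcr4-3. Clec4f had 0 and 21.1 in the Bmal1 libraries, against 4.31, 1.90 and 12.5 in the Cxcr4 libraries.

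Of the natural brakes on interleukin-1, Il1r2 tracked Il1b more closely over the 5 libraries than Il1rn did. Il1rn, the secreted receptor antagonist, had 149.1 and 112.8 normalised counts in the Bmal1 libraries, against 114.1, 31.7 and 3.16 in Cxcr4-1, Cxcr4-2 and Cxcr4-3, a difference of 2.39 (SE 1.19; limma unadjusted p 0.0776, adjusted p 0.9999). Bmal1-3 lay just under Cxcr4-1, so the groups overlapped, and the difference was 1.09 without Cxcr4-3 and 1.19 with the core neutrophil sum as a covariate. Within a library the ratio of Il1rn to Il1b was 0.0665 and 0.0816 in the Bmal1 libraries, against 0.195, 0.0114 and 0.0582 in the Cxcr4 libraries: Cxcr4-2 had the most Il1b and the least antagonist beside it. Il1r2, the decoy receptor that binds interleukin-1 without signalling, had 100.1 and 39.5 in the Bmal1 libraries, against 40.9, 181.1 and 2.11 in the Cxcr4 libraries. Its ratio to Il1b kept to a narrower range than that of Il1rn, at 0.0447 and 0.0285 in the Bmal1 libraries, against 0.0699, 0.0652 and 0.0388 in the Cxcr4 libraries.

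Il1a had another pattern. Il1a, which encodes interleukin-1α, the form that signals without caspase processing, had 14.7 and 104.3 normalised counts in Bmal1-2 and Bmal1-3, against 17.2, 8.44 and 104.7 in Cxcr4-1, Cxcr4-2 and Cxcr4-3. The libraries numbered 3 in both groups were high and the other 3 low. The same 2 libraries had the highest sums of endothelial genes (15125 in Bmal1-3 and 27588 in Cxcr4-3). They also had the highest values of the macrophage genes C1qa, C1qb, C1qc, Vsig4 and Clec4f. The sum of the monocyte and macrophage list was nevertheless lowest in Cxcr4-3 (113.5). The part of these cell types in the Il1a level was not tested. The ratio of Il1a to Il1b was 0.00657 and 0.0754 in the Bmal1 libraries, against 0.0294, 0.00304 and 1.93 in the Cxcr4 libraries, so Cxcr4-3 alone held more Il1a than Il1b.

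**Figure D2:**
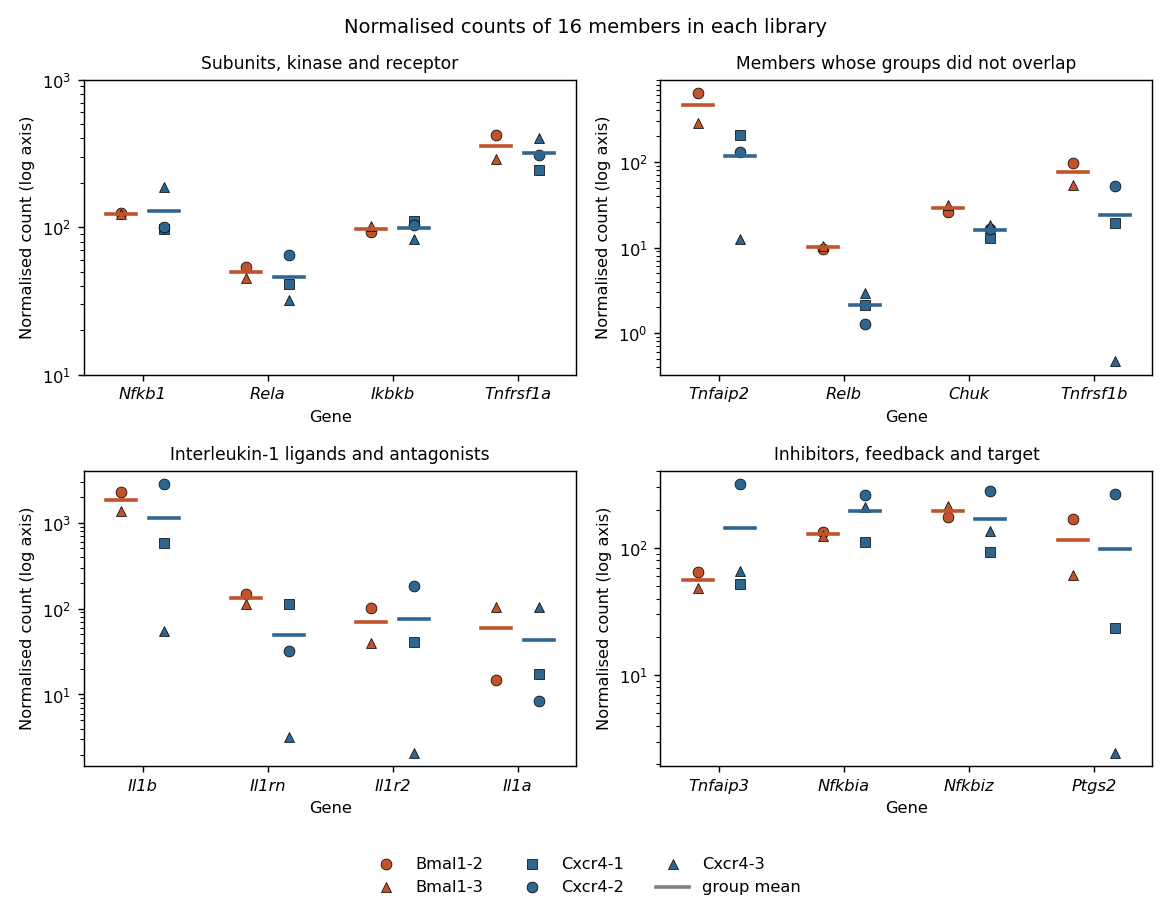
Normalised counts (log axis) of 16 members in each library, in orange for the Bmal1 and in blue for the Cxcr4 libraries, with marker shape for the replicate number and bars for group means. Ikbkb ranges from 83.7 to 109.8, Nfkb1 from 96.9 to 187.9, Rela from 31.9 to 64.8 and Tnfrsf1a from 243.2 to 419.4. The axis range of their panel was fixed, unlike that of the other panels. Cxcr4-3 lies far below the other libraries for Tnfaip2, Tnfrsf1b, Il1b, Il1rn, Il1r2 and Ptgs2. Cxcr4-2 lies above the others for Tnfaip3, where it reaches 316.3.

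The remaining cytokines were low or uneven. Tnf had 2.71 and 9.42 normalised counts in the Bmal1 libraries, against 2.15, 20.9 and 0.586 in Cxcr4-1, Cxcr4-2 and Cxcr4-3, and Osm, a cytokine of the interleukin-6 family that neutrophils make, had 60.7 and 29.1 in the Bmal1 libraries, against 17.2, 107.7 and 2.11 in the Cxcr4 libraries. Both were highest in Cxcr4-2, lowest in Cxcr4-3 and differed between groups by less than their SE. Il6 had 22 reads in Cxcr4-2, 1 read in Bmal1-3 and 0 reads in the other 3 libraries, 1 of which is Cxcr4-1, where a single read is already worth 2.15. Il23a had at most 2 reads in any library, and both Il6 and Il23a fell below the test's minimum. Il18 had 19 reads in Bmal1-2 and at most 1 read in each other library, so the lack of overlap of its groups rests on 1 library (difference 1.37, SE 0.92; limma unadjusted p 0.171, adjusted p 0.9999), and the difference was 0.15 without Bmal1-2 and 2.60 without Bmal1-3. Csf1, the growth factor of monocytes and macrophages, had 254.3 and 132.1 normalised counts in the Bmal1 libraries, against 83.9, 152.2 and 144.4 in the Cxcr4 libraries (difference 0.58, SE 0.51; limma unadjusted p 0.294, adjusted p 0.9999), and was not low in Cxcr4-3. Its difference was 0.11 without Bmal1-2, 1.05 without Bmal1-3 and 0.30 without Cxcr4-1.

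The 2 TNF receptors had unlike patterns over the libraries. Tnfrsf1a, the receptor found on most cell types, had 419.4 and 291.7 normalised counts in Bmal1-2 and Bmal1-3, against 243.2, 306.8 and 403.1 in Cxcr4-1, Cxcr4-2 and Cxcr4-3, and the groups overlapped. Tnfrsf1b (chromosome 4, 145213463 to 145246870, minus strand), the receptor more restricted to blood and endothelial cells, had 97.4 and 54.0 in the Bmal1 libraries, against 19.4, 52.4 and 0.468 in the Cxcr4 libraries. The Tnfrsf1b groups did not overlap, but Bmal1-3 and Cxcr4-2 were almost level, and Cxcr4-3 held only 4 reads. The difference was 2.65 (SE 1.35; limma unadjusted p 0.0828, adjusted p 0.9999), 1.16 without Cxcr4-3 and 1.56 with the core neutrophil sum as a covariate. The ratio of Tnfrsf1b to Tnfrsf1a was 0.232 and 0.185 in the Bmal1 libraries, against 0.0796, 0.171 and 0.00116 in the Cxcr4 libraries.

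Ptgs2, the inducible cyclooxygenase of prostaglandin synthesis, had 169.6 and 61.9 normalised counts in the Bmal1 libraries, against 23.7, 267.9 and 2.46 in Cxcr4-1, Cxcr4-2 and Cxcr4-3. As for Il1b, the highest and the lowest library were both in the Cxcr4 group. The difference was 1.87 (SE 1.52, limma unadjusted p 0.253, adjusted p 0.9999). It was 0.35 without Cxcr4-3 and 3.49 without Cxcr4-2 (limma unadjusted p 0.0276). The fit without Cxcr4-2 had 0 genes past the adjusted threshold. Cd83, a surface protein of mature dendritic cells, had 3.91 and 0.224 in the Bmal1 libraries, against 12.9, 0.211 and 0.937 in the Cxcr4 libraries, on 13 reads or fewer in each.

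**Figure D3:**
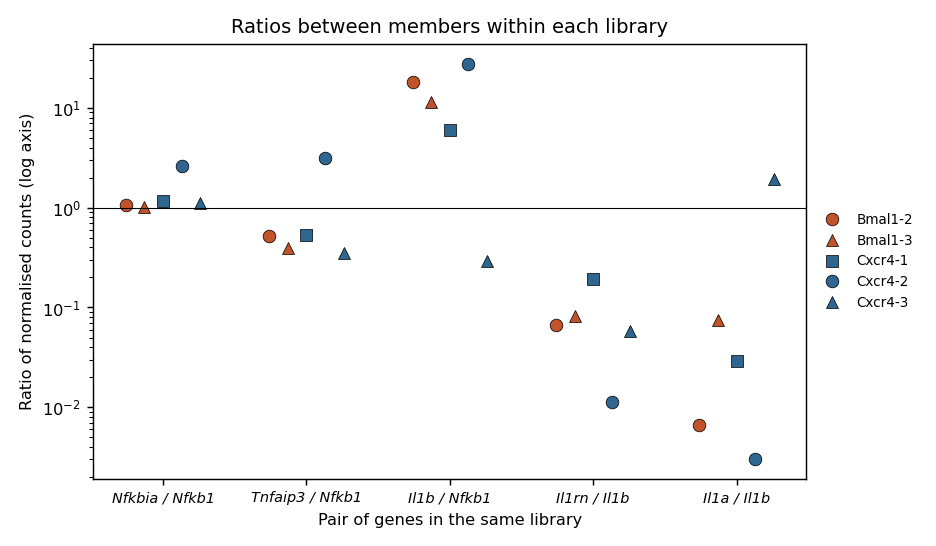
Ratios of normalised counts between pairs of members within the same library (log axis), 1 point per library, in orange for the Bmal1 and in blue for the Cxcr4 libraries. The ratios of Nfkbia to Nfkb1 and of Tnfaip3 to Nfkb1 are close together in 4 libraries and higher in Cxcr4-2 (2.59 and 3.15), whereas that of Il1b to Nfkb1 is below 1 only in Cxcr4-3 (0.289).

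Among the members, the highest value fell most often in Cxcr4-2 and the lowest most often in Cxcr4-3. Cxcr4-2 was the highest library for 13 of the 31 tested members (41.9%), against 25.4% of all genes tested. The 13 are all 5 inhibitors, Rel, Rela, Tnfaip3, Il1b, Tnf, Osm, Il1r2 and Ptgs2. The same library was the lowest for 6 members, among them Relb, Nfkb2, Traf1 and Il1a, so the members did not move there as a block. It was also the highest for 6 of the 12 endothelial genes, the other 6 being highest in Cxcr4-3, and for 3 of the 7 platelet genes tested, and the part of those cells in these values was not tested. Cxcr4-3 was the lowest for 14 of the 31 (45.2%), against 20.1% of all genes tested, and the highest for 3 (9.68%), against 29.3%. The ratio of Nfkbia to Nfkb1 was 1.06 and 1.02 in the Bmal1 libraries, against 1.16, 2.59 and 1.12 in Cxcr4-1, Cxcr4-2 and Cxcr4-3, and that of Tnfaip3 to Nfkb1 was 0.516 and 0.396 in the Bmal1 libraries, against 0.533, 3.15 and 0.351 in the Cxcr4 libraries. Of the 57 further pathway genes tested, Cxcr4-2 was the highest library for 18 (31.6%) and the lowest for 14 (24.6%). Named after their values were seen, the chemokine gene Cxcl2 had 276.8 normalised counts there and 21.5 in the next highest library, whereas Cxcl10, another chemokine gene, had 1.90 there and 99.4 in its highest library. Of the 9 members with a κB match in the promoter, 6 were highest in Cxcr4-2, among them Il6, which fell below the test's minimum. Of the 16 with a window but no match, 6 were. Nfkbiz and Osm, also highest there, had no window, and this split of the members was not tested.

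**Figure D4:**
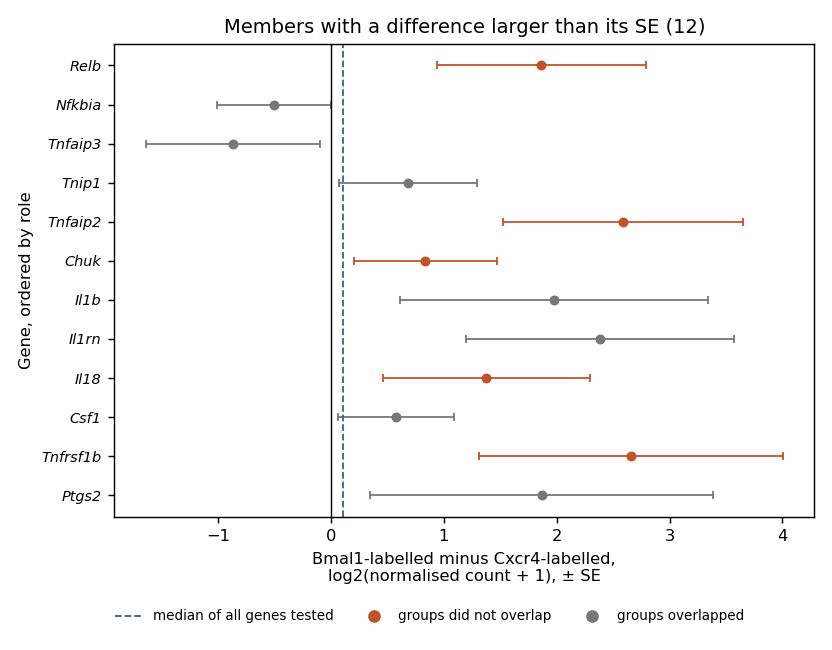
Difference between groups (Bmal1 minus Cxcr4, on the log2(normalised count + 1) scale, points with SE bars) for the 12 tested members with a difference larger than its SE. Members whose groups did not overlap are in orange, and the dashed line is the median of all genes tested, 0.11. Of the 12 differences, 10 are positive and 2 (Nfkbia and Tnfaip3) negative. The 12 are 38.7% of the 31 tested members, and 32.9% of all genes tested had a difference above its SE.

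No member passed the threshold between the groups. By limma, 0 of the 31 members and 0 of 14632 genes (0%) had an adjusted p under 0.05. At an unadjusted p under 0.05 there were 1 member (Tnfaip2, higher in the Bmal1 libraries) and 612 genes (4.18%), or 3.68% counting only genes higher in the Bmal1 libraries. edgeR called 0 genes, with 0 members and 524 genes (3.58%) at an unadjusted p under 0.05. DESeq2 called 13 genes (0.0888%), of which 0 were members, and had 0 members and 682 genes (4.66%) at an unadjusted p under 0.05. The groups did not overlap for 5 of the 31 members (Relb, Tnfaip2, Chuk, Il18 and Tnfrsf1b), or 16.1%, against 18.8% of all genes tested, which is no more than the background. All 5 were higher in the Bmal1 libraries, a direction that 13.6% of all genes showed without overlap and that 5.22% showed the other way.

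As a list, 22 of the 31 tested members had positive and 9 negative differences, with a median of 0.44, beside a median of 0.11 and 55.2% positive among all genes tested. By limma, the cytokines (7 of 7 tested) and receptors (3 of 3) were all positive, with medians of 1.24 and 1.15. The subunits (0.17), inhibitors (-0.078) and kinases (-0.023) lay near 0. By edgeR and DESeq2, which moved the median of all genes to -0.086 and -0.099, Tnf and Il1r2 were negative and 18 of the 31 members positive. The member median fell to 0.15 by edgeR and 0.14 by DESeq2. The 3 receptors had edgeR differences of -0.098 (Il1r2), 0.15 (Tnfrsf1a) and 1.63 (Tnfrsf1b). Of the tested cytokines and receptors, Il1b, Il1rn, Tnf, Osm, Il1r2 and Tnfrsf1b were lowest in Cxcr4-3, the library with the lowest core neutrophil sum. The difference with that sum as a covariate is given above only for Il1b, Il1rn and Tnfrsf1b. Without Cxcr4-3, 18 members were positive, with a median of 0.32, and with Cxcr4-2 as the sole Cxcr4 library 16 were positive, with a median of 0.19. The summed level of all members was 5084 and 3433 normalised counts in Bmal1-2 and Bmal1-3, against 2103, 5433 and 1677 in Cxcr4-1, Cxcr4-2 and Cxcr4-3, with the groups overlapping.

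A second list of 65 further genes of the pathway, with adaptors, upstream receptors, ubiquitin enzymes and targets, had 57 tested, of which 40 had positive and 17 negative differences and 0 passed the threshold. The median difference was 0.44. Bcl3, a nuclear IκB protein that works with subunits lacking an activation domain, had 35.8 and 43.7 normalised counts in the Bmal1 libraries, against 12.9, 9.29 and 1.29 in the Cxcr4 libraries, without overlap (difference 2.56, SE 0.96; limma unadjusted p 0.0270, adjusted p 0.9999). Bcl2a1a, a survival gene whose near-identical copies can share reads, had 9.92 and 1.57 in the Bmal1 libraries, against 0, 0 and 0.117 in the Cxcr4 libraries, and is therefore uncertain (limma unadjusted p 0.0311, adjusted p 0.9999). The groups overlapped for 2 copies. Bcl2a1b had 14.1 and 4.04 in the Bmal1 libraries, against 4.305, 7.81 and 0, and Bcl2a1d had 0 and 1.79, against 0, 34.8 and 0.820. Tlr9, the receptor for unmethylated DNA, had 6 and 12 reads in the Bmal1 libraries, against 0 reads in all 3 Cxcr4 libraries (limma unadjusted p 0.0497, adjusted p 0.9999). Ltb, which encodes a membrane lymphotoxin that feeds the alternative pathway, had 79.7 and 39.2 in the Bmal1 libraries, against 53.8, 0 and 9.25 in the Cxcr4 libraries, with overlap (difference 2.79, SE 1.47; limma unadjusted p 0.0930, adjusted p 0.9999), and the difference was 1.27 without Cxcr4-2. The groups overlapped for the 4 with the highest mean normalised count, not corrected for length: Tab2 averaged 185.3 ± 15.1 (SD, n = 2) in Bmal1 and 187.0 ± 49.0 (SD, n = 3) in Cxcr4 libraries, Tbk1, a kinase related to Ikbke, 66.8 ± 12.03 and 122.1 ± 71.7, Myd88, the adaptor of most Toll-like receptors, 100.4 ± 24.3 and 60.6 ± 29.5, and Nlrp3, the inflammasome sensor, 186.5 ± 87.4 and 86.5 ± 77.8, in the same order.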

How the data were processed

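The table that the authors deposited gives normalised read counts, used here as a signal that cannot be negative, with 1 scale factor per library. Named in the submitters' processing notes, with no role or order, are RSEM 1.2.3, CASAVA 1.8.2, cutadapt and GRCm38. RNA with poly(A) tails was amplified by a kit made for single cells, per the labels' protocols. The sources used here do not give the normalisation, annotation or strand setting. Without strand, reads of Nfkb2, Nfkbib, Tnfaip2, Ikbkg, Ikbke, Il1a and Il1b cannot be told from those of genes that overlap their exons on the opposite strand (at most 14.5% of exon bases for any 1 such gene).

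All values (100%) were whole multiples of each column's smallest positive value, within 0.01, and reads were recovered by dividing by it. Floors cover counting error only. Symbols came from a table of gene names (18847 of 19127 IDs matched), and positions and exon unions from GENCODE M21. limma 3.58.1 (R 4.3.3) was run on log2(value + 1) with an intensity trend on 14632 genes (mean CPM 1 or more), two-sided, with Benjamini-Hochberg adjustment and a threshold of 0.05, as Bmal1 minus Cxcr4. edgeR 4.0.16 and DESeq2 1.42.0 on recovered reads were alternatives.

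Members and lists were chosen with earlier results of these data known. A member is given in every library if its groups did not overlap, if its unadjusted p was under 0.05 or if it was among the 2 of its role with the highest mean normalised count. Il1rn, Il1a, Il6, Tnf, Osm and Tnip1 were added after their values were seen. A member's difference is printed where it exceeded its SE or the groups did not overlap. Of the further pathway genes, the 4 with the smallest p and the 4 with the highest mean are given, with no fitted difference where a group was at or near 0 reads. Bcl2a1b and Bcl2a1d are given as copies of Bcl2a1a.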

Additional observations from a re-analysis of the deposited data

How the results depend on the processing

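The 20 alternatives changed the pseudocount, filter, scaling, variance prior, covariate, tool or libraries. Of the tested members, 0 passed the threshold under any of them, and over all genes only DESeq2 made calls (13). The number of members with a positive difference lay between 16 and 24. Quantile normalisation moved the median of all genes from 0.11 to -0.044, and edgeR and DESeq2 to -0.086 and -0.099. With Cxcr4-2 as the only Cxcr4 library the differences of Il1b and Ptgs2 turned to -0.66 and -1.38; both had Cxcr4-3 as their lowest library. Of the 31 tested members 18 changed sign under at least 1 alternative, 2 of them among the 12 with a difference above its SE. Both groups have libraries numbered 2 and 3, and no label pairs them. Same-numbered libraries deviated together (r across genes 0.284 and 0.388). These 2 values are not independent, since the deviations of the 2 Bmal1 libraries from their mean mirror each other. The replicate block on the 4 libraries numbered 2 and 3 made 0 calls, with a member median of 0.30. It had 2258 genes at a limma unadjusted p under 0.05, against 612 in the fit reported and 1782 without Cxcr4-1. At that p the block had 5 of the 31 members (Tnfaip2, Il1rn, Nfkbia, Tnfaip3 and Tnfrsf1b), against 1 in the fit reported. This share is like that of all genes in the block fit (2258 of 14632). Fits with a single library in a group assume that it varies like the other group. In Cxcr4-1, values under 6.46 rest on fewer than 3 reads and are uncertain.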
